A study of Mus musculus with 8 samples.

Results

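Described here are 10 genes of the contractile apparatus of smooth muscle cells and myofibroblasts and of its regulation, called contractile genes below. These belong to the 18193 genes that had a probe set of a single gene symbol on the array. The 10 include the actins Acta2 and Actg2 and the actin-binding proteins Tagln, Cnn1, Lmod1 and Synpo2. The others are the myosin heavy chain Myh11, the kinase Mylk, the intermediate filament protein Des and the transcriptional coactivator Myocd, which is a regulator. Each was found by its symbol in the array annotation and is given by whichever of its probe sets had the highest mean level, with the others kept as a check. All 10 were found, on 20 probe sets. The level of 9 of them lay above the median of all probe sets (5.92 on the log2 scale), and Myocd lay just below it at 5.91.

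The tissue was lung from adult female C57BL/6 mice, 10 to 12 weeks old, that had undergone pneumonectomy (PNY, removal of the left lung) or sham surgery (SHAM, an opened chest with no resection). Both groups received ketamine and xylazine, mechanical ventilation, ampicillin and, for pain, buprenorphine. Lungs were taken after 6 hours and after 1, 3 and 7 days, with 1 array per group at each time and tissue of 8 mice pooled on each array. Each value is therefore a mean over a pool, and no value here measures the spread between mice. The PNY pools hold the lung that remained after resection, and which lobes entered the SHAM pools is not given in the sources used here. In whole lung RNA, more cells of a type and more RNA per cell cannot be told apart.

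Smooth muscle cells line the airways and the larger vessels of the lung and shorten when myosin pulls on actin filaments. Contraction begins when calcium activates myosin light chain kinase, the product of Mylk, which phosphorylates the myosin light chain. Most of these genes are transcribed under serum response factor (SRF), which binds a short sequence called the CArG box and works with myocardin or the related coactivators Mrtfa and Mrtfb. Myofibroblasts, the contractile fibroblasts of growing alveoli and of healing wounds, share Acta2 and Tagln with smooth muscle.

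Expression is given as log2 values made by RMA, in which a step of 1 stands for a doubling of the signal of a probe set. A difference is the PNY value minus the SHAM value at the same time point, and a mean difference is followed by the SD of these 4 differences. The words rose and fell are kept for genes past the rank product threshold, a P-value under 0.001 together with a 1.5-fold change in that direction, where the 4 time points served as replicates. Levels are compared only within a probe set, since probe sets differ in how strongly they bind.

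PNY lungs held more Actg2 than SHAM lungs at every time point, and Actg2 was the single gene of the 10 that rose. The other actin, Acta2, and the calponin gene Cnn1 were also higher in PNY at 4 of 4 time points and their groups did not overlap, but their fold changes, 1.19 and 1.28, did not reach the threshold. Lmod1, Mylk and Myocd had mean differences between -0.022 and -0.015. Over all genes 0.506% rose and 0.0605% fell, against 1 and 0 of the 10. Over the 10 genes the mean difference was above 0 for 7, beside 9622 of all 18193 genes. The median over the 10 was 0.18, while the median over all genes was 0.0073. Differing upward at all 4 time points was seen in 3 of the 10 and in 9.36% of all genes. Groups that did not overlap, with PNY the higher, were seen in 3 of the 10 and in 0.857% of all genes.

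**Figure D1:**
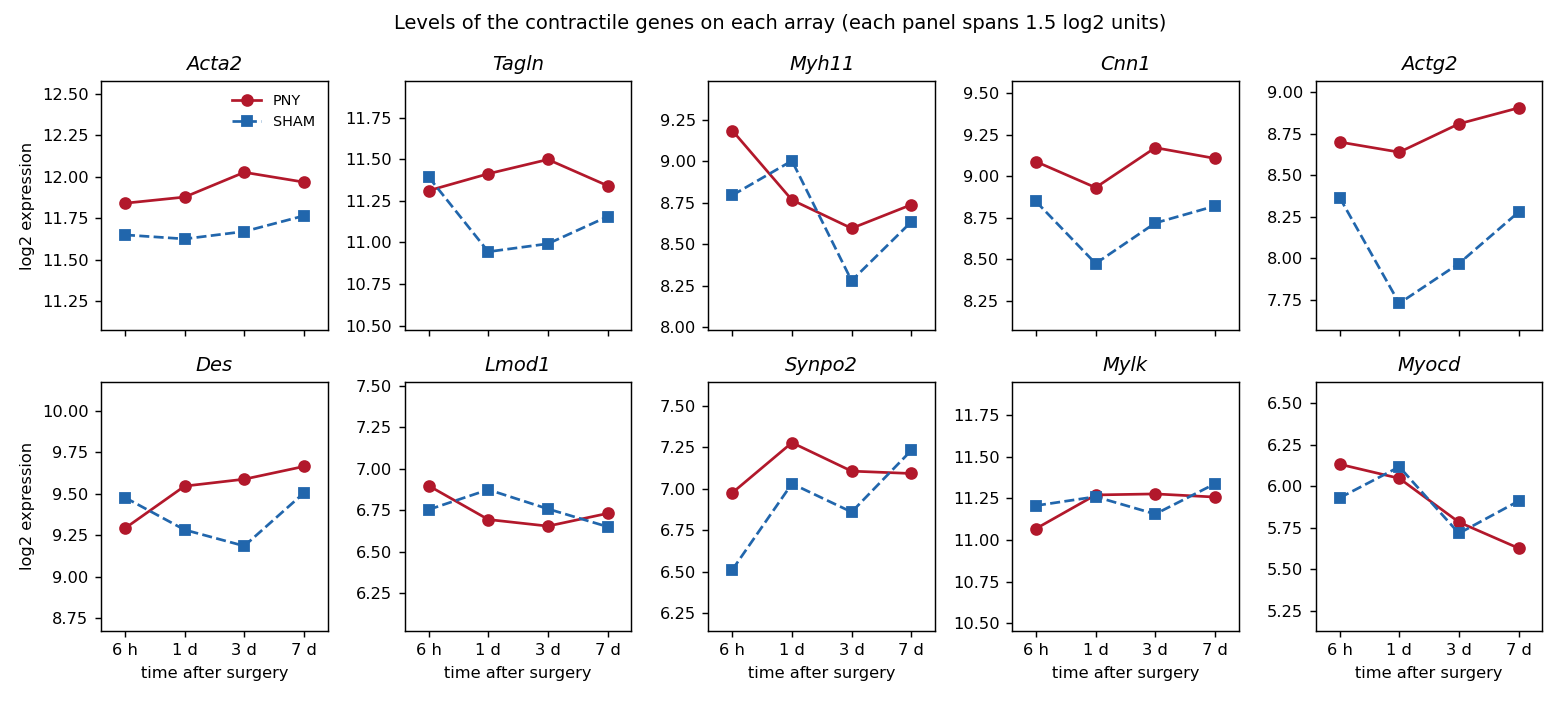
Log2 expression of each of the 10 genes (vertical axis, each panel spanning 1.5 log2 units) by time after surgery, with PNY and SHAM as separate lines and 1 pooled array per point. The PNY points of Acta2, Cnn1 and Actg2 all lie above the SHAM points, whereas the PNY and SHAM lines of each of the other genes cross.

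The smooth muscle alpha-actin gene Acta2 encodes the actin by which smooth muscle and myofibroblasts are usually recognized. Its probe set (1416454_s_at) read 11.84, 11.88, 12.03 and 11.97 in the PNY arrays of 6 hours and of 1, 3 and 7 days, against 11.65, 11.63, 11.67 and 11.76 in SHAM. The lowest PNY array thus lay above the highest SHAM array, and the gap was widest at 3 days. The mean difference was 0.25 ± 0.075, or a fold change of 1.19, with an exact permutation p of 0.029 (two-sided), which is the smallest that 4 arrays against 4 can give. The rank product P-value was 0.0575, so Acta2 did not pass. The suffix of this probe set marks probes that can also bind a related sequence, and actins are closely related, so part of its signal may come from another actin gene.

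The start of Acta2 is shown because its flank holds sequences of the kind that SRF binds, beside that of Cnn1, which holds none. The part of such sequences in the differences was not tested. The window runs over 250 bases before and 50 bases after the RefSeq start (build GRCm38.p6), on chr19:34255324-34255623 on the minus strand for Acta2 and on chr9:22099003-22099302 on the plus strand for Cnn1. Capitals mark CArG-type runs, which begin with CC, end with GG and have A or T at all 6 bases between, or at all but 1 of them.
Acta2: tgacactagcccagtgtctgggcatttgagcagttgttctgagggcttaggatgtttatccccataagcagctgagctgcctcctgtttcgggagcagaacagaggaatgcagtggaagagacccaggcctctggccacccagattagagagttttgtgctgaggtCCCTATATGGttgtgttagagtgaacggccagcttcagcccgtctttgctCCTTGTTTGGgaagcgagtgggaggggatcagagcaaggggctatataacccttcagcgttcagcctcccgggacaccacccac
Cnn1: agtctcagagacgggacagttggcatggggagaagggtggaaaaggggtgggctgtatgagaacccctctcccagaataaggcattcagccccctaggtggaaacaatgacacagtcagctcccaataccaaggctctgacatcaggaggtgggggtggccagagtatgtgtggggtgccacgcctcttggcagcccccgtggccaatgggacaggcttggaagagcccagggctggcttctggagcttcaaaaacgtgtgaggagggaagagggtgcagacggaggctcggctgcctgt
The Acta2 matches are CCCTATATGG at -84 to -75 and CCTTGTTTGG at -34 to -25 from the start, both with 1 middle base that is neither A nor T. A GGAATG, the core of the sequence bound by TEAD factors, lies at -146 to -141 in lower case. RefSeq windows were matched for 6 of the 10 genes (Acta2, Cnn1, Des, Lmod1, Synpo2 and Mylk), and none of the 6 had a perfect CArG box, which 1.63% of all 32851 windows have. At least 1 CArG-type run was present in 1 of the 6 (Acta2) and in 9.98% of all windows, and 0.822% of all windows have 2 or more. When the 1 base off was allowed at any position, the ends included, Lmod1 also had 2 runs beside the 2 of Acta2, the other 4 windows still had none, and 21.1% of all windows had at least 1 and 3.7% had 2 or more. GGAATG or its reverse complement CATTCC was present in 3 of the 6 (Acta2, Lmod1 and Mylk) and in 14.7% of all windows. A match is a run of letters and not a measured binding site, and a window without one says only that these letters are not in it.

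Actg2 encodes the smooth muscle gamma-actin, best known from the muscle of the gut and bladder. Its single probe set (1422340_a_at) read 8.70, 8.64, 8.81 and 8.90 in PNY over the 4 time points, against 8.37, 7.73, 7.97 and 8.28 in SHAM. Every PNY array lay above every SHAM array, PNY stayed within a range of 0.27 and SHAM ranged over 0.64, with its low point at 1 day. The fold change was 1.26 at 6 hours, then 1.88, 1.79 and 1.54 at 1, 3 and 7 days. The mean difference was 0.68 ± 0.26 (fold change of 1.60, rank product P-value of 6.61e-05, exact permutation p = 0.029, two-sided). Of the 18193 genes, 99.7% had a lower mean difference and Actg2 stood at place 58. It belongs to the genes that the study itself selected with this test on these arrays, so its call is not independent evidence. The estimated share of false positives at its rank was 0.0551. Without the SHAM array of 1 day its mean difference was 0.56, and without both arrays of 3 days it was 0.62, and in neither case did it pass.

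Set side by side within each time point, the difference was larger in Actg2 than in Acta2 at 4 of 4 time points, by 0.14 at 6 hours and by 0.66, 0.48 and 0.42 at 1, 3 and 7 days (mean 0.43 ± 0.21). This is given with no test, since Actg2 was known for its difference on these arrays. The actins outside smooth muscle did not pass the test. Cytoplasmic Actb and Actg1 had mean differences of 0.011 ± 0.056 and 0.086 ± 0.085. Cardiac Actc1 had 0.28 ± 0.29, with the largest difference, 0.57, at 7 days. Skeletal Acta1 had 0.14 ± 1.56, made up of -1.57 at 1 day and 2.21 at 7 days.

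**Figure D2:**
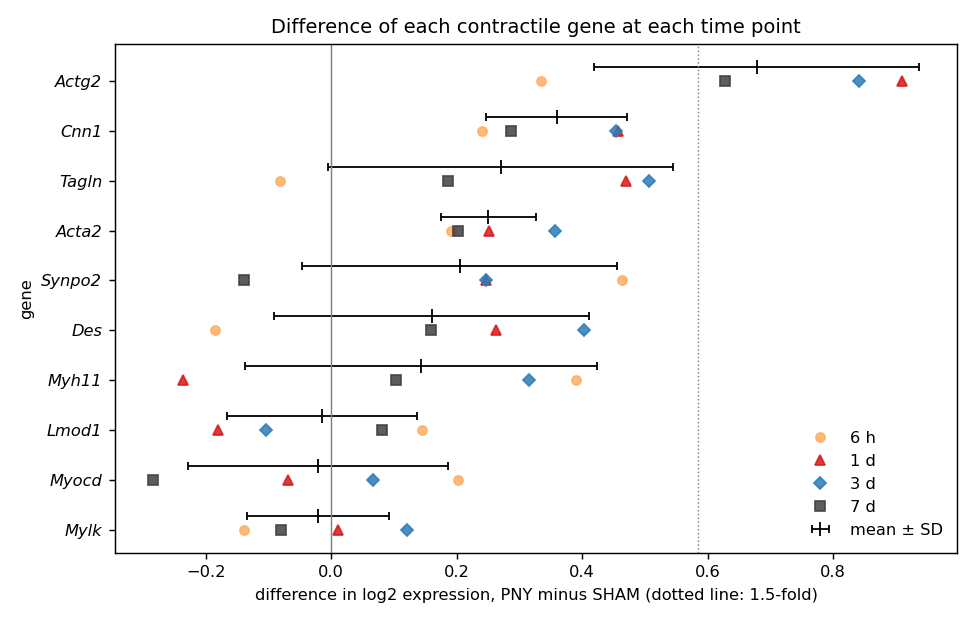
PNY minus SHAM in log2 units (horizontal axis) for the 10 genes, with 1 point per time point, a bar for the mean ± SD of the 4 times and a dotted line at a 1.5-fold rise. Actg2 has the largest mean, 0.68, and for Acta2, Cnn1 and Actg2 all 4 points lie above 0.

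Among the proteins that bind actin filaments, Cnn1 encodes calponin, which holds back the myosin motor in differentiated smooth muscle. It read 9.09, 8.93, 9.17 and 9.11 in PNY, against 8.85, 8.47, 8.72 and 8.82 in SHAM (1417917_at). The groups did not overlap, and both had their lowest array at 1 day. The mean difference was 0.36 ± 0.11, a fold change of 1.28 (rank product P-value of 0.00934, exact permutation p = 0.029, two-sided), and 98.5% of all genes had a lower one.

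Tagln encodes transgelin, an early marker of smooth muscle also found in myofibroblasts. It read 11.31, 11.41, 11.50 and 11.34 in PNY, against 11.39, 10.94, 10.99 and 11.16 in SHAM (1423505_at). The groups overlapped through the SHAM array of 6 hours, which was above the PNY array of that time, while at 1, 3 and 7 days PNY was higher by 0.47, 0.51 and 0.19. The mean difference of 0.27 ± 0.28 (fold change of 1.21) had a rank product P-value of 0.0304 and an exact permutation p of 0.086 (two-sided).

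Lmod1 encodes leiomodin, which starts new actin filaments in smooth muscle. It read 6.90, 6.69, 6.65 and 6.73 in PNY, against 6.75, 6.87, 6.76 and 6.65 in SHAM (1427485_at), and the groups overlapped almost fully. PNY was higher at 6 hours and 7 days and lower at 1 and 3 days, for a mean difference of -0.015 ± 0.15 (exact permutation p = 0.86, two-sided).

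Synpo2 encodes a protein that bundles actin at the Z-discs and dense bodies of muscle. It read 6.97, 7.28, 7.11 and 7.09 in PNY, against 6.51, 7.03, 6.86 and 7.23 in SHAM (1452879_at). PNY was higher at the first 3 times and lower at 7 days, and the SHAM array of 6 hours was the lowest of the 8. The mean difference was 0.20 ± 0.25 (exact permutation p = 0.31, two-sided), and it was 0.072 without the SHAM array of 6 hours and 0.31 without that of 7 days.

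Myh11 encodes the smooth muscle myosin heavy chain, the motor itself and the marker most restricted to smooth muscle. It read 9.18, 8.77, 8.60 and 8.74 in PNY, against 8.79, 9.002, 8.28 and 8.63 in SHAM (1448962_at). PNY was higher at 6 hours, 3 days and 7 days and lower at 1 day, and the groups overlapped. The mean difference was 0.14 ± 0.28, within the spread of the time points (exact permutation p = 0.51, two-sided). It was 0.022 without the PNY array of 6 hours and 0.010 without the SHAM array of 3 days, and 0.25 without the SHAM array of 1 day.

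Mylk encodes the kinase that switches the motor on, and a longer form of the same gene is made in endothelium. It read 11.07, 11.27, 11.28 and 11.26 in PNY, against 11.21, 11.26, 11.16 and 11.34 in SHAM (1425506_at). Apart from a low PNY array at 6 hours the groups lay together, with a mean difference of -0.022 ± 0.11 (exact permutation p = 0.74, two-sided). The 2 other Mylk probe sets, both above the median level, had mean differences of -0.021 and -0.0060.

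Des encodes desmin, the intermediate filament of all muscle and of many pericytes. It read 9.29, 9.55, 9.59 and 9.66 in PNY, against 9.48, 9.28, 9.19 and 9.51 in SHAM (1426731_at). PNY was lower at 6 hours and higher at the other 3 times, most at 3 days (0.40), and the groups overlapped. The mean difference was 0.16 ± 0.25 (exact permutation p = 0.17, two-sided), and it was 0.10 without the SHAM array of 3 days.

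Myocd encodes myocardin, the coactivator of SRF restricted to smooth and cardiac muscle. It read 6.13, 6.05, 5.78 and 5.63 in PNY, against 5.93, 6.12, 5.72 and 5.91 in SHAM (1425978_at). At this low level the groups overlapped, with the lowest array that of PNY at 7 days, and the mean difference was -0.021 ± 0.21 (exact permutation p = 0.91, two-sided). Each of the 10 genes was tested singly in this way, and the p-values are unadjusted.

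By limma, with Benjamini-Hochberg adjustment over the 45037 probe sets, 0 of the 10 genes and 0% of all genes passed an adjusted p of 0.05. At an unadjusted p under 0.05 there were 4 of the 10 (Actg2, Cnn1, Acta2 and Tagln) and 2.17% of all genes. With the time point as a block, Actg2 had an unadjusted p of 0.00032 and an adjusted p of 0.62 in limma. With the block, too, 0 of the 45037 probe sets passed an adjusted p of 0.05. The rank product call of Actg2 was thus not matched by a call in limma, with or without the block, and neither fit called any probe set.

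**Figure D3:**
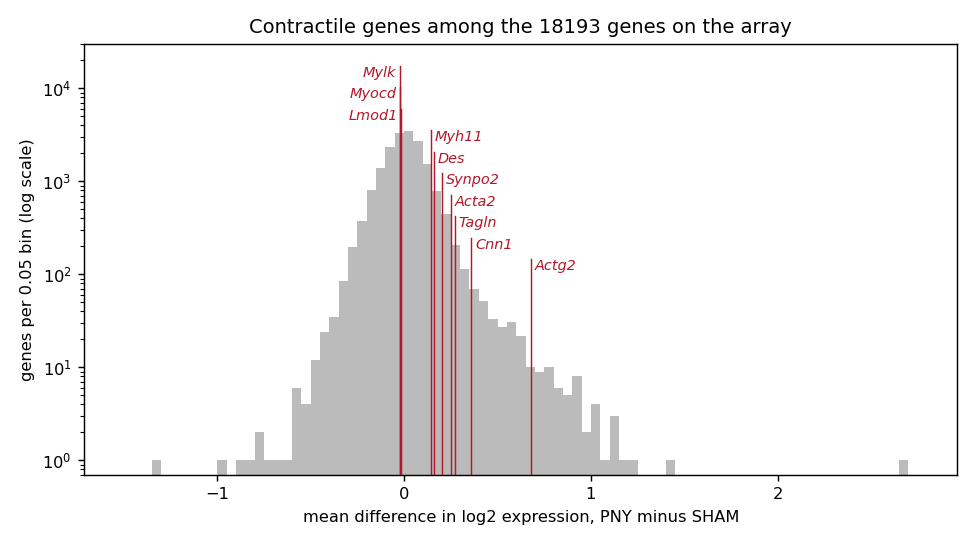
Number of genes (vertical axis, log scale) by mean difference in log2 expression, PNY minus SHAM (horizontal axis), over all 18193 genes, with a line at each of the 10 contractile genes. The bulk of genes lies around a median of 0.0073, Actg2 lies at 0.68, and Lmod1, Mylk and Myocd lie just below 0.

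At single time points, with 1 array per group and no test, the 10 genes had median differences of 0.20 at 6 hours and 0.25, 0.34 and 0.13 at 1, 3 and 7 days, and all genes had 0.016, 0.017, 0.011 and -0.0013. PNY was the higher for 9 of the 10 at 3 days and for 7 of the 10 at each other time. The share of all genes higher in PNY at a single time was not counted. The exception at 3 days was Lmod1. At 6 hours 0 of the 10 were at least 1.5-fold higher, beside 0.682% of all genes. Actg2 was the 1 gene past that fold at 1 day, 3 days and 7 days, where 1.88%, 1.14% and 1.98% of all genes were. None of the 10 was 1.5-fold lower at any time, beside 1.04%, 1.09%, 0.511% and 1.48% of all genes at the 4 times in order.

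The arrays behind these differences varied in both groups. The lowest SHAM array was that of 1 day for Acta2, Tagln, Cnn1 and Actg2, and that of 3 days for Myh11, Des, Mylk and Myocd. The log2 values of the 10 genes summed to between 90.43 and 90.51 in the PNY arrays, and to 88.93, 88.34, 87.30 and 89.29 in the SHAM arrays in order of time. Every PNY sum was above every SHAM sum, and the SHAM sum was lowest at 3 days. The sums hold Actg2, Cnn1 and Acta2, whose groups did not overlap singly, so they are not separate evidence. They do not show a shift shared by all 10 genes. How often other sets of 10 genes separate in this way was not counted. Whether the difference itself changed with time was tested by limma as the interaction of surgery with later (3 and 7 days) against earlier (6 hours and 1 day) times. An unadjusted p under 0.05 was reached by 0 of the 10 and by 2.46% of all genes, and the p-values of the 10 lay between 0.32 and 0.97.

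Over both groups together, the level at the later times was set against that at the earlier ones by limma, with surgery in the fit. The log2 difference was -0.37 (SE 0.13) for Myh11 and -0.30 (SE 0.097) for Myocd, with unadjusted p-values of 0.015 and 0.013 and adjusted p-values of 0.22 and 0.21. Unadjusted p-values under 0.05 were found for 2 of the 10 and for 16.7% of all genes, and adjusted ones for 0 of the 10 and for 0.077% of all genes. Neither gene passed, and in both the PNY values were highest at 6 hours.

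Where a gene had more than 1 probe set, the others did not always give the same direction. Over the 20 probe sets 10 had a mean difference above 0. For Acta2 the other probe sets, both below the median level, had mean differences of 0.17 and -0.055. The second probe set of Myh11 had -0.021, that of Des -0.058 and that of Myocd -0.12, all 3 below the median level. Synpo2 had 3 others, all above the median level, with -0.070, 0.30 and 0.071, and the one at 0.30 had a difference of 0.82 at 6 hours. Tagln, Cnn1, Actg2 and Lmod1 have 1 probe set each and no such check. When all probe sets of a gene were averaged in place of taking the highest one, the median over the 10 genes was 0.092.

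**Figure D4:**
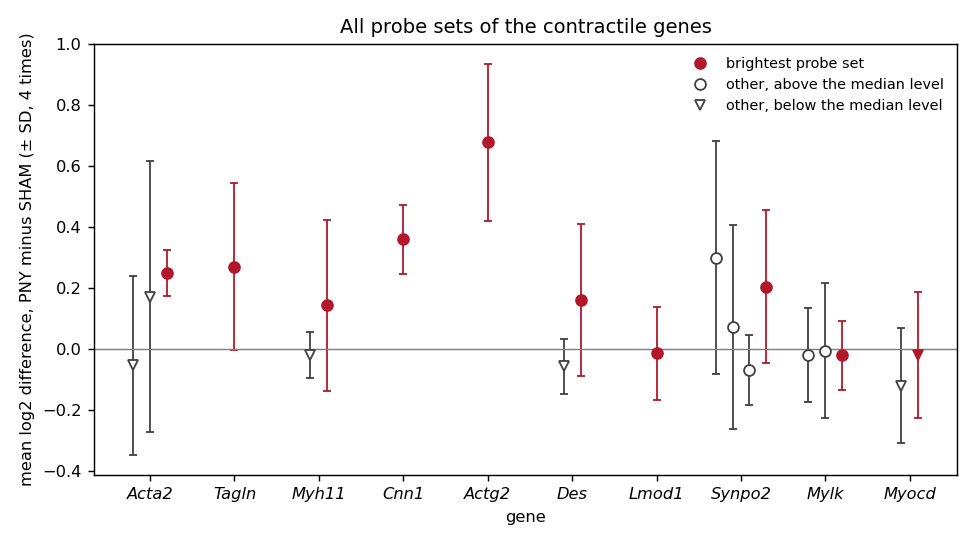
Mean of PNY minus SHAM in log2 units (vertical axis, bars give the SD over the 4 times) for all 20 probe sets of the 10 genes, with filled symbols for the probe set used and triangles for those below the median level. The other probe sets of Myh11, Des, Myocd and Mylk lie between -0.12 and -0.0060.

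Of the other proteins of the contractile apparatus, 25 of the 26 listed were measured and none rose or fell. Their mean differences were above 0 for 19, beside 9622 of all 18193 genes. PNY was the higher at each of the 4 times for 11, beside 9.36% of all genes, and the median was 0.12. With the 6-hour PNY array left out that median was 0.187, with the 7-day PNY array left out 0.070, and with the 6-hour SHAM array left out 0.045. By limma 2 of the 25 had an unadjusted p under 0.05, beside 2.17% of all genes, and 0 an adjusted one. Smoothelin (Smtn), restricted to contractile smooth muscle, had a mean difference of 0.22 ± 0.10 and was higher at 4 of 4 times. The tropomyosins Tpm1 and Tpm2, which lie along the actin filament, had 0.13 ± 0.12 and 0.20 ± 0.27, and caldesmon (Cald1), which restrains myosin binding, had 0.12 ± 0.063. The regulatory light chain Myl9, the substrate of the kinase, had 0.12 ± 0.15. The extremes of the list were the small heat shock protein Hspb6, at 0.30 ± 0.31, and the desmin partner Synm, at -0.27 ± 0.39, with -0.80 at 7 days.

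Among 24 genes of contraction signalling (myosin phosphatase, cyclic GMP, calcium channels and receptors among them), 20 were measured, none passed (1 at an unadjusted p under 0.05 by limma), and the median mean difference was -0.0061. The largest were those of the L-type calcium channel subunit Cacna1c, at 0.39 ± 0.21 and higher at 4 of 4 times (rank product P-value of 0.00493), and of Rgs2, a brake on receptor signalling, at -0.36 ± 0.28 and lower at 4 of 4 times. Among 16 regulators of smooth muscle genes none passed (1 at an unadjusted p under 0.05 by limma), and the median was 0.034. The share of all genes under that unadjusted p, to set beside both lists, was 2.17%. Srf had 0.095 ± 0.10, and its coactivators Mrtfa and Mrtfb had 0.0045 ± 0.18 and -0.11 ± 0.12. Klf4, known to repress smooth muscle genes, read 11.26, 11.07, 11.22 and 11.53 in PNY, against 10.59, 10.85, 10.91 and 10.99 in SHAM. Its groups did not overlap, and its mean difference of 0.44 ± 0.21 (fold change of 1.35) had a rank product P-value of 0.00348. Hey1, a Notch target, was the lowest of the list at -0.26 ± 0.17.

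Markers of other cells were read beside these genes. Of 10 pericyte and 12 fibroblast markers none passed, with medians of 0.046 and 0.013. Of 11 measured markers of activated fibroblasts and myofibroblasts the matrix protein Tnc rose (1.15 ± 0.90), and the median was 0.20. Without the SHAM array of 6 hours that median was 0.016, without the PNY array of 7 days 0.100, and without the PNY array of 1 day or the SHAM array of 7 days 0.31 and 0.34. Endothelial and airway epithelial markers, 8 each, had medians of 0.069 and 0.021, none passed, and the lowest mean level of any of them was 10.26 and 9.59, far above the median level. The 8 mesothelial markers had a median of 0.36 at 6 hours and -0.31 at 7 days.

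Striated muscle markers stood apart in some arrays. Those of cardiac muscle did so in the SHAM array of 7 days. Those of skeletal muscle did so in both 7-day arrays and in the SHAM array of 1 day. The 12 cardiac muscle markers, whose cells sheathe the pulmonary veins of mice, summed to 93.59, 96.28, 95.64 and 93.16 log2 units in PNY and to 92.82, 97.40, 96.19 and 84.44 in SHAM. The SHAM array of 7 days thus stood apart, 12 of 12 markers were higher in PNY at that time with a median difference of 0.59, and the atrial peptide gene Nppa rose (0.77 ± 0.98). The 12 skeletal muscle markers summed to 65.26, 64.997, 65.76 and 76.58 in PNY and to 66.72, 71.51, 64.85 and 61.86 in SHAM. Their median difference was -0.34 at 1 day and 1.14 at 7 days, and Myl1 rose (0.71 ± 1.06). Des, Synpo2 and Myocd are also made in striated muscle, and their differences at 7 days were 0.16, -0.14 and -0.28. The part of striated muscle in the 1-day and 7-day values was not tested. Without both arrays of 7 days Actg2 had a mean difference of 0.70 and passed. Without both arrays of 1 day it had 0.60 and passed, and without the SHAM array of 1 day alone it had 0.56 and did not pass.

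**Figure D5:**
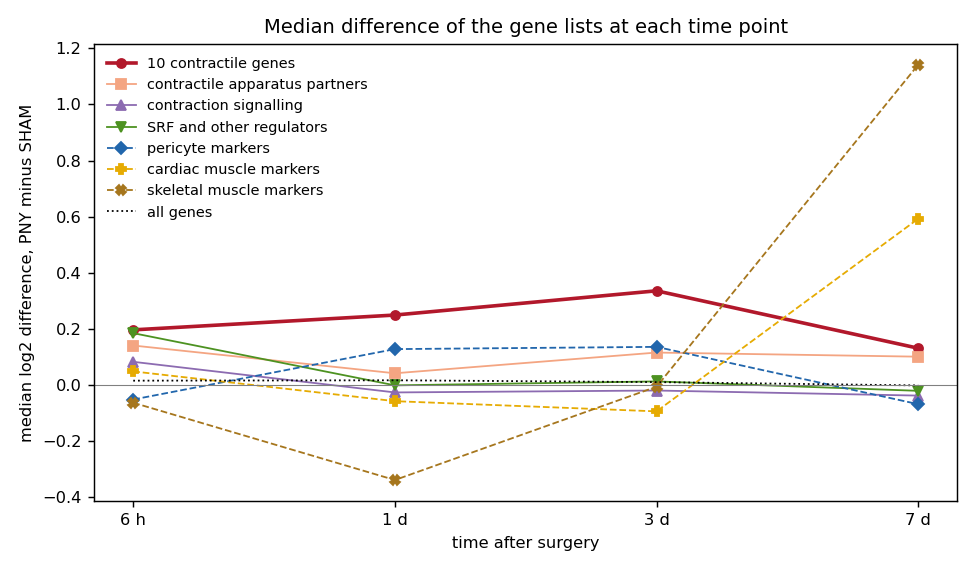
Median of PNY minus SHAM in log2 units (vertical axis) by time after surgery (horizontal axis) for the 10 contractile genes, 6 other gene lists and all genes. The contractile genes lie at 0.20, 0.25, 0.34 and 0.13, and the cardiac and skeletal muscle lists reach 0.59 and 1.14 at 7 days.

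The mean profile of the 10 genes, each centred on its own mean, was 0.10, 0.099, 0.10 and 0.096 in PNY and -0.054, -0.11, -0.22 and -0.018 in SHAM at the 4 time points. Among the other genes above the median level the nearest to it, by root mean square distance over the 8 arrays, were Nfatc4 (0.045), Tomm40 (0.051), Ltbp1 (0.051), Mmgt1 (0.053) and Asah2 (0.055), and the median distance of the 12151 genes above that level was 0.187. The profile itself had a root mean square size of 0.114, which is the distance of a gene that does not change at all. Of the 10 genes themselves Acta2 was the nearest to the profile (0.075), followed by Des (0.111). The others lay farther from it than an unchanging gene, and Actg2 was the farthest (0.292). Nfatc4 read 6.99, 7.03, 6.99 and 7.00 in PNY, against 6.89, 6.91, 6.77 and 6.92 in SHAM. Its groups did not overlap, but it was picked for nearness to a profile whose PNY values all lie above its SHAM values. The mean difference of Nfatc4 was 0.13 ± 0.066, with a rank product P-value of 0.259. The distance is a description over the arrays that also set the profile.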

How the data were processed

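RNA of mouse lung, pooled from 8 mice per array, was measured on 8 Affymetrix Mouse Genome arrays, 4 PNY and 4 SHAM. The authors deposited log2 expression values made with RMA (background correction, quantile normalization and a summary value for each probe set). The version and the log base are not given in the sources used here, and the values, with a lowest of 2.00, have the range of log2 RMA values. Array medians lay between 5.90 and 5.95. With 8 arrays, their number sets the precision.

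From 45101 probe sets, the 64 controls were dropped, with no further filter. The array annotation gives 34945 probe sets a single gene symbol, 932 several and 9160 none, and genes were named from the first alone. Of several probe sets of a gene, the one with the highest mean level was used. Rank products were computed over the 16 pairs of PNY and SHAM arrays with 1000 permutations (100 for alternatives), following the thresholds of the study's methods, coded with numpy 2.4.6 and pandas 2.3.3 under Python 3.11.15. limma 3.58.1 in R 4.3.3 gave the second test, adjusted over 45037 probe sets by Benjamini-Hochberg. For single genes an exact permutation test over the 70 ways of dividing the 8 arrays was used, which takes them as unpaired. The exact permutation and limma p-values measure the spread between these pooled arrays taken at different times. In limma this is the spread left after the terms of the fit, so the block takes out what both arrays of a time share. The rank product P-value comes from permuting values within each array. It measures how extreme the ranks of a probe set are among all probe sets, and not a spread between arrays. Both scripts were tested on simulated data.

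The labels give each PNY array a SHAM array of the same time. Deviations from the group means correlated over probe sets at r of 0.605, 0.357, 0.302 and 0.295 in the pairs of 6 hours and of 1, 3 and 7 days, and between -0.508 and 0.340 across times. The time point was therefore also used as a block.

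The genes and gene lists were chosen with earlier results of these data known. The rule for named genes took in the 10 genes, a fixed set of partners, regulators and actins, any listed gene that passed the rank product threshold, the extremes of the 3 smooth muscle lists and the 5 nearest profiles. Rock2, Itpr1, Ednra, Chrm2 and Spp1 were listed and had no probe set of a single symbol here, and 1 listed partner is not reported here. Of 10 housekeeping genes, 7 were measured, none passed, and their median difference was 0.025. Alternatives were each array centred, a further quantile normalization, the median level as a filter, each array or time point left out, other rank product thresholds and other probe sets. Promoter windows came from RefSeq (GRCm38.p6), and figures were drawn with matplotlib 3.10.9.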

Additional observations from a re-analysis of the deposited data

Results flagged for a closer look

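In 72 groups of 4 arrays (36 named genes, PNY and SHAM), 7 had 1 array set far from the other 3, where chance gives about 1 in 20. For Mylk it was the PNY array of 6 hours, at 11.07 with the others between 11.26 and 11.28. For Tpm2 it was also the PNY array of 6 hours, at 10.02 with the others between 10.40 and 10.44. The SHAM array of 7 days stood apart for Cald1 (11.81, others 11.64 to 11.66) and for Myl1 (5.61, others 6.45 to 6.56). Acta1 was high in the PNY array of 7 days (8.17, others 5.90 to 6.17) and in the SHAM array of 1 day (7.47, others 5.96 to 6.18). Asah2 was low in the SHAM array of 3 days (7.84, others 7.95 to 7.96). None of these groups belongs to Actg2, Acta2 or Cnn1.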

How the results depend on the processing

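Over the settings that left out 1 array or both arrays of a time point, the count of contractile genes that rose ranged between 0 and 1. It was 0 without the SHAM array of 1 day (SHAM replicate 2), where Actg2 had a mean difference of 0.56, and without both arrays of 3 days (0.62). It was also 0 with an estimated share of false positives under 0.05 as the threshold. In the other settings that left arrays out Actg2 kept its call, with mean differences between 0.60 and 0.79. Centring each array and a further quantile normalization gave 0.68 and 0.66, with the call kept.

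With the time point as the replicate block, so that rank products used only the 4 same-time pairs, Actg2 kept its call at 0.68. With the block in limma its adjusted p was 0.62 and 0 of the 10 genes passed, as did 0 of all 45037 probe sets. The block changed no other call of the 10 genes.

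Mean differences near 0 changed sign. Mylk turned positive when the 6-hour PNY array (0.029), the 7-day SHAM array (0.011) or both 6-hour arrays (0.017) were left out. Over single arrays left out it lay between -0.050 and 0.029. Lmod1 did so with the PNY array of 1 day (0.0019) or 3 days (0.015), the 1-day SHAM array (0.023) or both 1-day (0.040) or 3-day (0.015) arrays left out, and over single arrays it lay between -0.066 and 0.023. Myocd did so with the 3-day (0.017) or 7-day (0.069) PNY array, the 1-day SHAM array (0.045) or both 7-day arrays (0.067) left out, and over single arrays it lay between -0.099 and 0.069. With arrays left out, Myh11 ranged between 0.010 and 0.27, Synpo2 between 0.072 and 0.32 and Des between 0.079 and 0.27, and the medians of the partners and of the activated fibroblast markers between 0.045 and 0.19 and between 0.016 and 0.34. With another probe set, Acta2 had -0.055, Myh11 -0.021, Des -0.058 and Synpo2 -0.070. The median over the 10 genes was 0.092 with all probe sets of a gene averaged and between 0.14 and 0.24 with arrays left out. At a fold change of 2 in place of 1.5, 0 of the 10 were past it at 1, 3 or 7 days. The settings chosen after seeing the data were a quantile normalization for the change with time, which altered no call, and shares over the 12151 genes above the median level, of which 0.486% rose. The cause of these changes was not tested.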
